A study of Mus musculus with 9 samples.

Results

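Mast cells and basophils store large amounts of proteases in their granules, bound to heparin or related sugar chains on the core protein serglycin, and release them when antigen crosslinks IgE on the cell surface. The set comprises a carboxypeptidase (Cpa3), chymases and chymase-like proteases (Cma1, Mcpt1, Mcpt2, Mcpt4), tryptases (Tpsb2, Tpsab1), 2 proteases of basophils (Mcpt8 and Prss34) and granzyme B (Gzmb), best known from cytotoxic lymphocytes. GATA2 binds DNA through zinc fingers, acts in stem and progenitor cells, and is needed for mast cells and basophils to develop. The genes were taken from a list of symbols, drawn up with earlier results of these data known, and the rule that picked their clusters used no group difference. All 10 listed symbols were found, each with 1 transcript cluster (a set of probes combined into 1 signal), of 18797 gene symbols on the array.

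The genes were measured on 9 arrays, 3 for each of 3 retroviruses. The vectors carried GATA2 R396Q with green fluorescent protein, GATA2 wild type with green fluorescent protein, or green fluorescent protein alone (the empty vector, MIE). R396Q replaces an arginine of GATA2, and the labels do not name the species of the cDNA. In all groups the cells came from the bone marrow of C57BL/6 females aged 8 weeks given 5-fluorouracil at 150 mg/kg 6 days before harvest, were selected as Lin-Sca+Kit+, and had 72 h of culture before the GFP-positive ones were sorted out. The labels call the tissue blood and the cells HSC, whereas their protocol names bone marrow. The labels name no change to the cells' own Gata2, to which each vector was added, and whether the probes catch the vector's transcript was not tested. The labels do not say whether the 3 arrays of a group came from separate mice, so p measures the spread between these samples, which may be technical.

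Values are log2 signals, on which 1 unit is a doubling. The median signal per array was 6.06 to 6.19 and the lower quartile 4.54 to 4.60. Gata2, the transduced gene, had log2 signals of 10.65, 10.72 and 10.53 with R396Q, 11.50, 11.24 and 10.94 with wild type and 9.87, 9.67 and 9.65 with empty vector, and the groups did not overlap. It rose 1.87-fold with R396Q (limma adjusted p = 0.0394) and 2.81-fold with wild type (limma adjusted p = 0.0016) over empty vector. The R396Q call did not hold on leaving out each of 7 of the 9 arrays, with an adjusted p of up to 0.155. The R396Q cells held 1.51-fold less Gata2 signal than the wild type cells, a difference that passed with the replicate number as a block and not without it (limma adjusted p = 0.0222 with the block, 0.0633 without it).

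Markers of the cell types were set beside the proteases. Fcer1a, the IgE-binding chain of the IgE receptor, averaged 8.80 ± 0.50 with R396Q, 13.14 ± 0.48 with wild type and 8.76 ± 1.37 with empty vector (SD, n = 3 each). Ms4a2, the beta chain gene of that receptor, averaged 10.20 ± 0.14, 12.65 ± 0.04 and 9.68 ± 0.74 in the same groups. Fcer1g, its gamma chain gene, averaged 12.21 ± 0.09, 12.21 ± 0.27 and 11.91 ± 0.24, and its wild type difference from empty vector did not pass (0.30, limma adjusted p = 0.353). Kit, the receptor that mast cells and stem cells carry and by which the donor cells were selected, averaged 10.47 ± 0.14, 9.46 ± 0.04 and 12.27 ± 0.09. Mitf, another marker gene of the list, averaged 7.56 ± 0.13, 7.38 ± 0.12 and 8.08 ± 0.43. Enpp3, another basophil and mast cell marker, averaged 4.45, 4.47 and 4.45, below the lower quartile of every array, and Il1rl1 was not analysed here. Over 34 identity genes the mean log2 signal per array was 7.77 to 7.91 with R396Q, 8.55 to 8.90 with wild type and 7.37 to 7.76 with empty vector, and its part in the protease differences was not tested. In sorted cells in bulk, more cells of a type and more RNA per cell cannot be told apart.

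The promoter windows of 5 of the proteases are shown, since GATA2 is the factor that was added: those of Cpa3, Mcpt8 and Prss34, whose signals parted wild type from empty vector, and those of Mcpt1 and Mcpt4, which are near copies of each other. Each runs from 250 bases before to 50 bases after the RefSeq start of the gene on GRCm38.p6, on the strand of the gene. Capitals mark matches to the letters of the GATA motif that were searched on either strand, which are AGATAA, the variant AGATAG, the variant TGATAA and the variant TGATAG.
Cpa3 (chr3:20242132-20242431, minus strand): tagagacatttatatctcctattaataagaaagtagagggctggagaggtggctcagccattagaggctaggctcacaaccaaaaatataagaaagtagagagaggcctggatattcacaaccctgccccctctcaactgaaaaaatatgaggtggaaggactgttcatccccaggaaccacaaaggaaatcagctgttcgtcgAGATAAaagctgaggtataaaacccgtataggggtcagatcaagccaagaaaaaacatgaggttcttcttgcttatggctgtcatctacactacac
Mcpt8 (chr14:56085148-56085447, minus strand): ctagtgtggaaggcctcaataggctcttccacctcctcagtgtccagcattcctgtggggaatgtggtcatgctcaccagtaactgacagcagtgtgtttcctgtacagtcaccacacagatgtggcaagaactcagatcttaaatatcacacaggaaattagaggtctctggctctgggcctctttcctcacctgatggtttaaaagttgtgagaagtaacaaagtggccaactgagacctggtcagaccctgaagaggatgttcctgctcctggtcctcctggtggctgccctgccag
Prss34 (chr17:25298144-25298443, plus strand): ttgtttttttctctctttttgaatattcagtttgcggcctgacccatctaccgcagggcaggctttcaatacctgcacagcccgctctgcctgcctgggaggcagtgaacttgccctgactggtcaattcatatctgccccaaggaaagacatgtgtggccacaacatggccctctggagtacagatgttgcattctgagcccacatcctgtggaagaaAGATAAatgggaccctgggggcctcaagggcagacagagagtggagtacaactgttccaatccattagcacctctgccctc
Mcpt1 (chr14:56017714-56018013, plus strand): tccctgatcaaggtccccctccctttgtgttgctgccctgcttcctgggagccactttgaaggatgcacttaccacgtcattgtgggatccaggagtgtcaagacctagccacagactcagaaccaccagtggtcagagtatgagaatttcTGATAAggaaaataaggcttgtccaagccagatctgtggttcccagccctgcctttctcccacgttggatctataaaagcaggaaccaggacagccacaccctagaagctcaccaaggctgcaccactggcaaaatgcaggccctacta
Mcpt4 (chr14:56062261-56062560, minus strand): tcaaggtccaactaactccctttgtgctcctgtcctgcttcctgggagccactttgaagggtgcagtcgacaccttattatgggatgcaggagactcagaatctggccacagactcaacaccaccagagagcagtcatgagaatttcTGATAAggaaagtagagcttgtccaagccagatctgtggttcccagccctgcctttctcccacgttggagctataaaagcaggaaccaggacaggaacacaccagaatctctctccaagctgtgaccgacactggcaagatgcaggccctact
The Cpa3 window held 1 match, 46 bases before the start, and the Prss34 window held 1, 31 bases before the start. The Mcpt8 window held none, which says only that these letters are not in this window. The windows of Mcpt1 and Mcpt4 shared 81.4% of aligned positions and each held TGATAA in the same stretch, 99 and 103 bases before the start. Of 7 protease genes with a window in the table, 5 held a match (the other two that were not printed are Cma1, with 1 match, and Gzmb, with none), against 29.8% of all 32851 windows of this length. A match is a run of letters and not a measured binding site. Tpsb2, Tpsab1 and Mcpt2 are named only.

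Counted over the set, 2 of 10 genes rose with wild type over empty vector, Cpa3 and Mcpt8, where 4.64% of 21072 clusters were called higher, and 0 of 10 fell, where 4.35% were called lower. With the replicate number as a block, 3 rose (Prss34 too), where 8.00% of clusters did. The groups did not overlap for 4 genes, Cpa3, Mcpt2, Mcpt8 and Prss34, all higher with wild type, as did 10.8% of clusters. The median change of the 10 genes was 1.50, against -0.01 over all clusters, and 9 of 10 means were higher with wild type.

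R396Q over empty vector gave 0 of 10 calls in limma, where 1.23% of clusters were called. At an unadjusted p under 0.05 it gave 2 of 10, and 2540 of 21072 clusters. Under the block Cpa3 rose, where 1.66% of clusters did. For Cpa3 and Mcpt8 all R396Q arrays lay above all empty vector arrays, as for 6.98% of clusters, and the median change of the 10 genes was 0.72, against -0.01 over all clusters. With R396Q too, 9 of 10 means were higher than with empty vector, Tpsab1 being the exception. The share of all clusters with a higher mean was not counted in either comparison with empty vector. Between R396Q and wild type, 0 of 10 passed in limma, where 5.75% of clusters did. At an unadjusted p under 0.05 there were 2 of 10, and 3720 of 21072 clusters. Under the block Prss34 was lower with R396Q, where 5.95% of clusters were. Mcpt2, Mcpt8 and Prss34 did not overlap, all lower with R396Q, as did 9.59% of clusters, and the median was -0.59, against 0 over all clusters. The 2 comparisons with empty vector share its 3 arrays.

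**Figure D1:**
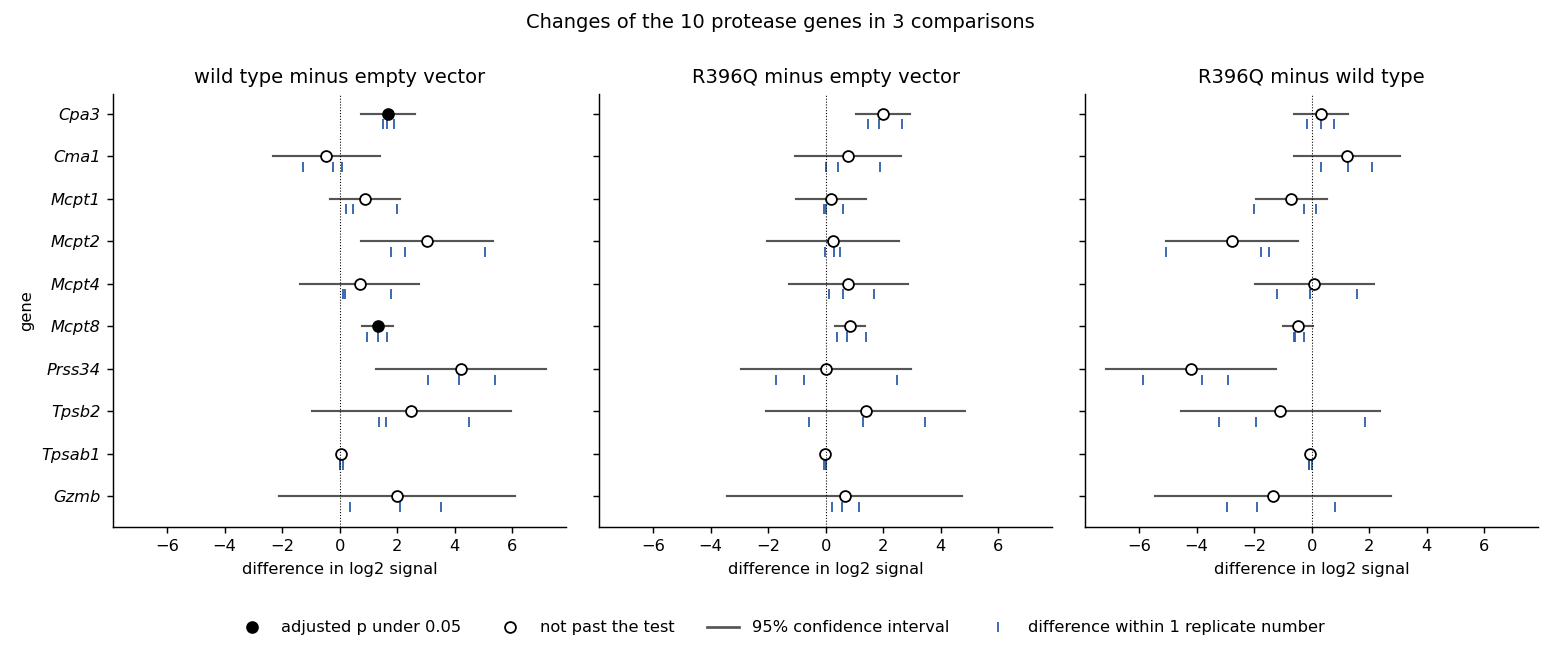
Difference in log2 signal (x axis) of each protease gene (y axis) in 3 comparisons, with the 95% confidence interval from limma as a line and the differences within each replicate number as ticks. Filled points, Cpa3 and Mcpt8 with wild type over empty vector, passed the test.

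Cpa3 encodes carboxypeptidase A3, which trims amino acids from the ends of peptides and is among the earliest protease genes expressed in the mast cell and basophil lineages. Its log2 signals were 16.38, 16.66 and 17.14 with R396Q, 16.53, 15.87 and 16.81 with wild type and 14.89, 13.99 and 15.30 with empty vector. All 6 arrays of the GATA2 groups lay above all 3 empty vector arrays, while R396Q and wild type overlapped. Cpa3 rose 3.20-fold with wild type (1.68 on the log2 scale, SE 0.40, 95% confidence interval 0.73 to 2.63, limma adjusted p = 0.0472). This call was lost when any 1 of the 9 arrays was left out, with adjusted p of 0.0502 to 0.133, and held with the replicate block (limma adjusted p = 0.0111). With R396Q the signal was 4.0-fold that with empty vector (2.00, SE 0.40, interval 1.05 to 2.95), which passed with the block and not without it (limma adjusted p = 0.0802 without it and 0.0244 with it). The difference of R396Q from wild type was 0.32 (interval -0.62 to 1.27, limma adjusted p = 0.779), so the order of these 2 groups was not resolved.

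Mcpt8 is a protease that in mice is made by basophils and serves as their marker. Mcpt8 had log2 signals of 16.40, 16.44 and 16.35 with R396Q, 16.97, 16.69 and 16.95 with wild type and 16.00, 15.05 and 15.61 with empty vector. The 3 groups did not overlap, with wild type highest and empty vector lowest. Mcpt8 rose 2.50-fold with wild type (1.32, SE 0.22, interval 0.79 to 1.85, limma adjusted p = 0.0137), a call that was lost only without wild type 1 among the arrays left out in turn (adjusted p = 0.0511). R396Q stood 0.84 above empty vector (SE 0.22, limma adjusted p = 0.167, and 0.0966 with the block) and 0.48 below wild type (-0.48, interval -1.0 to 0.05, limma adjusted p = 0.339), and neither difference passed the test. Mcpt8 was already among the bright clusters with empty vector, where its mean was 15.55 ± 0.48 (SD, n = 3).

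Prss34 encodes a tryptase-like serine protease of basophils and young mast cells. Prss34 had log2 signals of 13.61, 12.64 and 10.34 with R396Q, 17.43, 15.57 and 16.20 with wild type and 14.35, 10.15 and 12.05 with empty vector. The wild type arrays lay above all 6 others, and R396Q overlapped empty vector throughout. The wild type mean was 18.5-fold that of empty vector (4.21, SE 1.25, interval 1.25 to 7.17), a gap with the widest mean difference of the 10 genes but also a wide spread (SD 1.68 with R396Q, 0.95 with wild type and 2.10 with empty vector). It was 5.30 without empty vector 1 and 3.19 without empty vector 2. It passed with the replicate block (SE 0.86, limma adjusted p = 0.0319) and not without it (0.0939). Within the replicate numbers the difference was 3.08, 5.42 and 4.14. R396Q was 18.4-fold below wild type (-4.20, limma adjusted p = 0.0393 with the block and 0.124 without it), with differences of -3.81, -2.92 and -5.86 within the numbers. That difference was -4.91 without R396Q 1 and -3.27 without R396Q 3. Against empty vector the R396Q difference was 0.01, but its interval of -2.95 to 2.97 does not show that these 2 groups are alike.

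**Figure D2:**
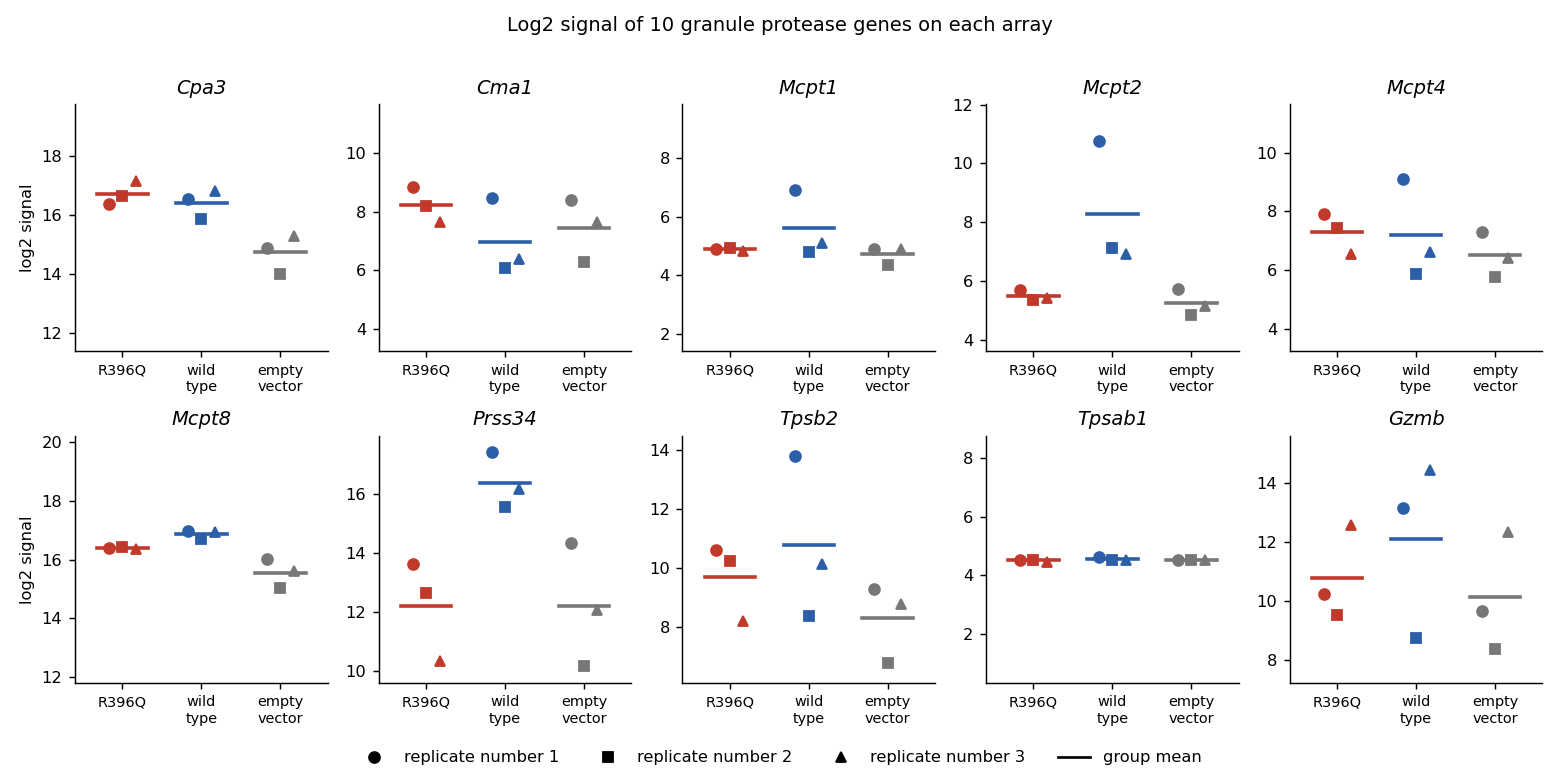
Log2 signal (y axis) of the 10 protease genes on each array, by group (x axis), with the replicate number as the point shape and the group mean as a line; every panel spans the same number of log2 units. Wild type arrays of Mcpt8 and Prss34 lie above all other arrays, and Gzmb is highest in number 3 and lowest in number 2 in every group.

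The tryptase genes lie in the same cluster as Prss34 on chromosome 17. Tpsb2 encodes a tryptase stored by connective tissue mast cells. Signals on the log2 scale were 10.60, 10.22 and 8.21 with R396Q, 13.81, 8.37 and 10.14 with wild type and 9.30, 6.77 and 8.78 with empty vector. The groups overlapped, and 1 array, wild type 1, stood far above the rest. The wild type mean was 2.49 above empty vector with an interval of -0.97 to 5.95 (limma adjusted p = 0.383), and without wild type 1 the difference was 0.97. The R396Q difference from empty vector was 1.40 (limma adjusted p = 0.780), and that from wild type was -1.09 (limma adjusted p = 0.801).

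Tpsab1, the neighbouring tryptase gene, is inactive in C57BL/6 mice and is listed as a transcribed pseudogene in the C57BL/6J reference annotation. Its log2 signals were 4.53, 4.53 and 4.46 with R396Q, 4.63, 4.53 and 4.53 with wild type and 4.53, 4.53 and 4.52 with empty vector. On 8 of 9 arrays it lay below the lower quartile of that array, a level not shown to be above background, and the group means differed by -0.06 to 0.04 on the log2 scale. Tpsg1, which encodes a membrane-anchored tryptase and lies next to Tpsb2, rose 5.10-fold with wild type (2.35, SE 0.55, limma adjusted p = 0.0455). Its means were 5.83 ± 0.31 with R396Q, 7.99 ± 1.22 with wild type and 5.64 ± 0.14 with empty vector (SD, n = 3 each). That call did not survive the removal of empty vector 1, 2 or 3, wild type 3, or R396Q 1, 2 or 3 (adjusted p up to 0.115). R396Q was 4.46-fold below wild type for Tpsg1, which passed with the block and not without it (limma adjusted p = 0.0794 without it and 0.0498 with it). Of 8 tryptase locus relatives outside the set, Tpsg1 was the only 1 that rose with wild type and 0 fell, with a median change of 0.03. Of all clusters, 4.64% rose with wild type and 4.35% fell. With R396Q over empty vector 0 of the 8 changed, where 1.23% of clusters did. At an unadjusted p under 0.05 in limma 0 of the 8 changed also, where 2540 of 21072 clusters did.

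The chymase genes form a cluster on chromosome 14 that also holds Mcpt8, cathepsin G and the granzymes. Mcpt2 encodes a protease of mucosal mast cells. Mcpt2 had log2 signals of 5.71, 5.36 and 5.42 with R396Q, 10.76, 7.13 and 6.91 with wild type and 5.71, 4.85 and 5.13 with empty vector. All 3 wild type arrays lay above the median of their array and above all 6 others, which lay below theirs. The wild type mean was 8.21-fold that of empty vector (3.04, SE 0.97, interval 0.74 to 5.34, limma adjusted p = 0.116, and 0.0606 with the block), and R396Q was 6.83-fold below wild type (-2.77, limma adjusted p = 0.189, and 0.0928 with the block). Wild type 1 stood apart from the other wild type arrays. Without it the rise over empty vector was smaller, 1.79, but passed the test (limma adjusted p = 0.0173), as did the difference of R396Q from wild type (-1.52, adjusted p = 0.0371). R396Q and empty vector overlapped, with a difference of 0.27 (interval -2.03 to 2.56).

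Mcpt4 encodes the main chymase of mouse connective tissue mast cells. Its log2 signals were 7.90, 7.44 and 6.54 with R396Q, 9.11, 5.87 and 6.61 with wild type and 7.31, 5.77 and 6.42 with empty vector. The 3 groups overlapped, and the wild type difference from empty vector was 1.79 within number 1, 0.10 within number 2 and 0.19 within number 3. Cma1 encodes a chymase of the same mast cells. Its log2 signals were 8.83, 8.19 and 7.64 with R396Q, 8.48, 6.07 and 6.37 with wild type and 8.39, 6.30 and 7.64 with empty vector. It was the only 1 of the 10 genes with a lower mean in wild type than in empty vector (-0.46, interval -2.32 to 1.39), and it was higher with R396Q than with wild type within each replicate number (by 0.34, 2.12 and 1.26), which did not pass the test (limma adjusted p = 0.508, and 0.159 with the block).

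Mcpt1, a chymase of mucosal mast cells, had log2 signals of 4.90, 4.95 and 4.84 with R396Q, 6.90, 4.80 and 5.11 with wild type and 4.90, 4.34 and 4.90 with empty vector. Only wild type 1 lay above the median of its array, and the difference of wild type from empty vector was 0.88 (interval -0.34 to 2.11). Wild type 1 was the highest of the 9 arrays for 7 of 10 genes, Mcpt1, Mcpt2, Mcpt4, Mcpt8, Tpsb2, Tpsab1 and Prss34, as for 11.3% of all clusters. R396Q differed from empty vector by 0.79 for Mcpt4, 0.78 for Cma1 and 0.18 for Mcpt1 (limma adjusted p = 0.790, 0.765 and 0.949), and none of these passed the test. Mcpt1, Mcpt2 and Mcpt4 are close paralogs, as are the tryptases, and whether their probes catch each other's RNA was not tested.

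Granzyme B cleaves proteins after aspartate and triggers death of target cells when lymphocytes deliver it. Gzmb had log2 signals of 10.22, 9.54 and 12.58 with R396Q, 13.16, 8.73 and 14.46 with wild type and 9.64, 8.37 and 12.35 with empty vector. In each group number 3 was highest and number 2 lowest, with ranges of 3.04 with R396Q, 5.73 with wild type and 3.98 with empty vector. The wild type mean was 2.00 above empty vector with an interval of -2.11 to 6.10 (limma adjusted p = 0.568, and 0.150 with the block), and R396Q was 0.66 above empty vector (limma adjusted p = 0.940). An F-test of the replicate number beside the group, chosen after seeing the values, gave Gzmb the smallest p of the 10 genes without passing (limma adjusted p = 0.0651), and 7.00% of all clusters passed it. Markers of lymphocytes, which also make granzyme B, were mixed in level. Prf1, the pore-forming perforin, averaged 3.74, 3.75 and 4.04 with R396Q, wild type and empty vector, and Ncr1, a receptor of natural killer cells, averaged 4.42, 4.47 and 4.47, all below the lower quartile of every array. Nkg7, a protein of cytotoxic granules that myeloid cells also carry, averaged 14.84, 13.45 and 13.63 in the same groups, and Eomes, a transcription factor of NK cells and T cells, averaged 6.80, 6.36 and 6.16. The mean log2 signal of 16 NK cell and T cell markers was 5.35 to 5.53 per array with R396Q, 5.21 to 5.47 with wild type and 5.26 to 5.35 with empty vector, and 7, 6 and 6 of the 16 lay below the lower quartile in these groups, while 2, 2 and 1 lay above the highest array median. Their part in the Gzmb signal was not tested.

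The replicate number also ordered other protease genes. Number 1 was strictly highest in all 3 groups for 5 of 10 genes, Cma1, Mcpt2, Mcpt4, Tpsb2 and Prss34, against 9.01% of all clusters. Number 2 was lowest in all 3 groups for Gzmb, against 9.14%. Number 3 was strictly highest in all 3 groups for Cpa3 and Gzmb, against 12.7% of all clusters. The first 5 genes and the pair of Cpa3 and Gzmb were thus highest in different replicates. The labels do not say what samples with the same number share, and the part of a batch in these orders was not tested.

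**Figure D3:**
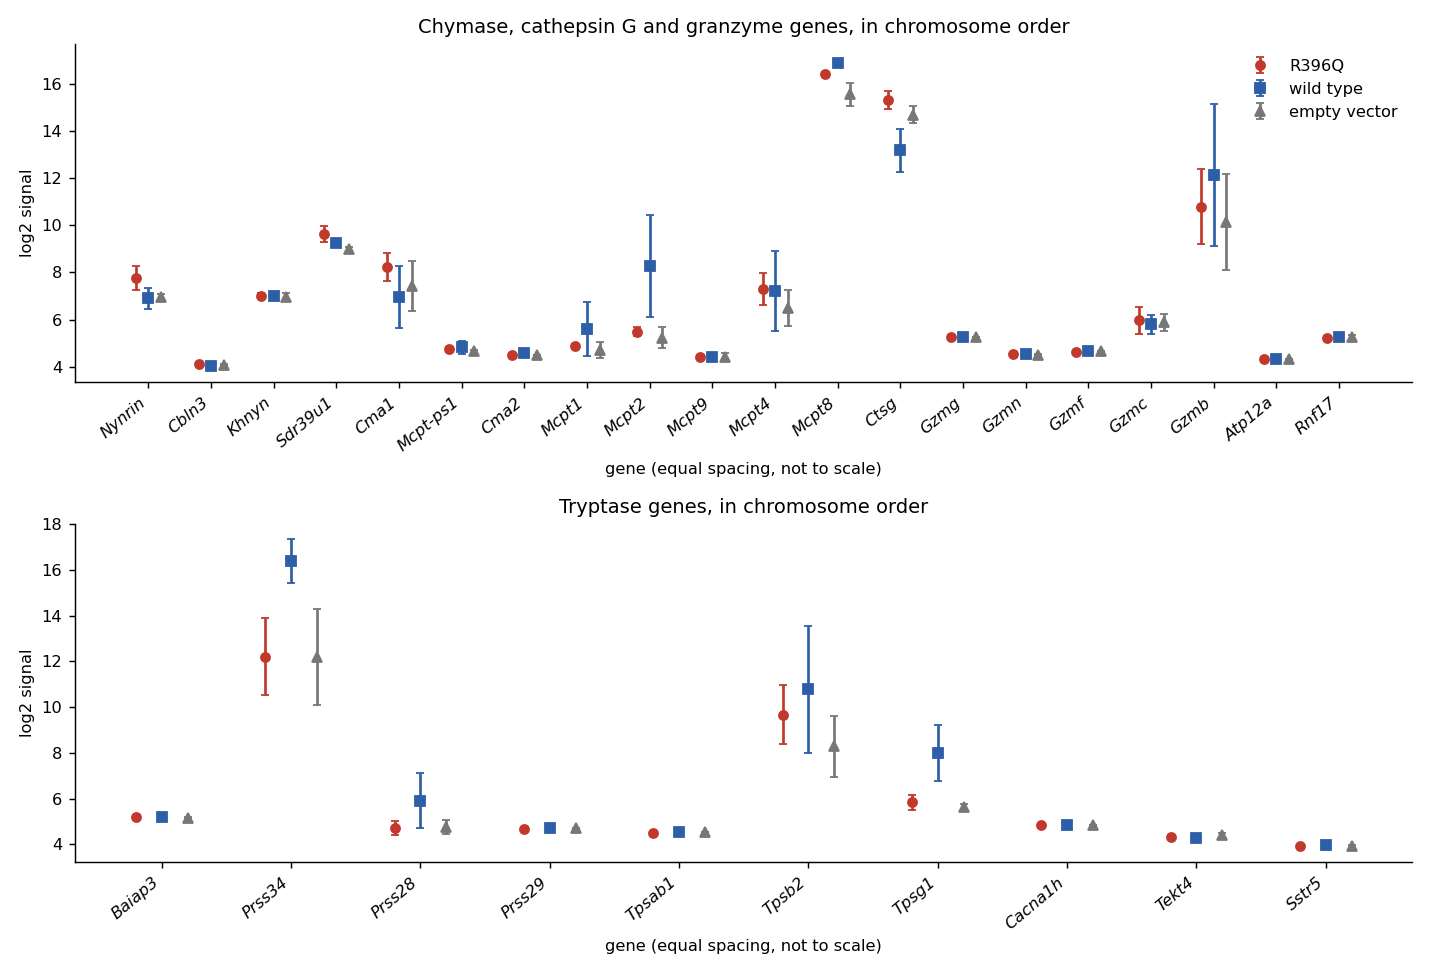
Log2 signal (mean and SD of 3 arrays, y axis) of the measured genes of the chymase and granzyme cluster (top) and the tryptase cluster (bottom), with up to 4 flanking genes on each side, in chromosome order (x axis, not to scale), by group. Mcpt2, Prss34 and Tpsg1 have wild type means above both other groups, Ctsg has its lowest mean with wild type, and heights of different genes are not comparable.

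Along the chromosome 14 cluster, Mcpt8 had its highest mean with wild type and Ctsg, the next protein-coding gene, its lowest. Ctsg, which encodes cathepsin G of neutrophil precursors and lies beside it, averaged 15.30 ± 0.38 with R396Q, 13.17 ± 0.92 with wild type and 14.69 ± 0.37 with empty vector (SD, n = 3 each). It was 4.36-fold higher with R396Q than with wild type (limma adjusted p = 0.0474, a call that only the removal of wild type 1 left in place, with adjusted p up to 0.155). With wild type it was 1.52 below empty vector, which passed with the block and not without it (limma adjusted p = 0.104 without it and 0.0163 with it). Mcpt9, between Mcpt2 and Mcpt4, averaged 4.43, 4.44 and 4.41 with R396Q, wild type and empty vector. Of 7 measured relatives in this cluster, Ctsg was the only 1 called in any comparison, with or without the block. Of all 21072 transcript clusters, 1894 were called with wild type over empty vector, 259 with R396Q over empty vector and 1211 between R396Q and wild type. With the block these counts were 3667, 632 and 2750.

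Some genes for the storage, activation and release of granule proteases changed with wild type. Of 20 measured, 6 rose and 2 fell with wild type over empty vector (10 and 4 under the block), and the median change was 0.22. Of all 21072 clusters, 977 rose and 917 fell (1685 and 1982 under the block). Hdc, which makes the histamine stored with the proteases, averaged 12.02 ± 0.39 with R396Q, 14.76 ± 0.13 with wild type and 10.61 ± 0.49 with empty vector (SD, n = 3 each), and the groups did not overlap. It rose 17.7-fold with wild type (limma adjusted p = 0.000442). Slc18a2, the transporter that fills the granules with histamine and serotonin, rose 9.90-fold (SE 0.23), Cd63, a granule membrane protein, 1.65-fold (SE 0.10) and Srgn, which encodes serglycin, 1.28-fold (SE 0.06). These 4 calls held without any 1 array. Ctsc, the cathepsin that activates chymases and granzymes by cutting off their propeptide, fell 2.74-fold (-1.46, SE 0.30, limma adjusted p = 0.0272). Ctsc was named after its values were seen, and its call was lost without any 1 of 6 arrays (adjusted p up to 0.0871). Its difference of R396Q from empty vector was -1.38, which did not pass (limma adjusted p = 0.0955, and 0.0579 with the block). R396Q differed from wild type by 0.08 for Ctsc (SE 0.30, limma adjusted p = 0.964), so the order of these 2 groups was not resolved.

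Over empty vector, 0 of the 20 passed with R396Q in limma. At an unadjusted p under 0.05 there were 9 of the 20, and 2540 of all 21072 clusters. The block gave 4 that rose and 1 that fell, and the median was 0.18. Those that rose were Slc18a2, Chst15 (2.51), Rab27b (1.34) and Ext2 (0.41), with limma adjusted p with the block of 0.00306, 0.0224 and 0.0292 for the last 3. Ctss fell (-3.58, limma adjusted p = 0.0127 with the block). With wild type over empty vector Chst15, Rab27b, Ext2 and Ctss differed by 2.28, 1.43, 0.25 and -4.12 (limma adjusted p = 0.0368, 0.0257, 0.407 and 0.0272). Ext2 passed there only with the block (limma adjusted p = 0.0325). The wild type calls of Chst15, Rab27b and Ctss were lost without any 1 of 7, 5 and 5 arrays. Of all clusters, 1.66% rose with R396Q under the block. Slc18a2 stood 2.55-fold and Hdc 2.66-fold above empty vector (limma adjusted p = 0.0511 and 0.0787, and 0.0259 and 0.0699 with the block). Against wild type, R396Q differed by -2.73 for Hdc (limma adjusted p = 0.00283), by -1.96 for Slc18a2 (0.00505) and by -0.40 for Srgn (0.0106). These were the 3 called lower of the 20, while 0 were called higher, and the median was -0.04. Over all 21072 clusters 648 were called lower and 563 higher.

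Of 34 measured genes of mast cell and basophil identity, 13 rose and 3 fell with wild type over empty vector (17 and 4 under the block), and the median change was 0.55. Of all clusters, 4.64% rose and 4.35% fell (1685 and 1982 of 21072 under the block). Fcer1a rose 20.8-fold (4.38, SE 0.67, limma adjusted p = 0.00953) and Ms4a2 7.81-fold (2.96, SE 0.33, limma adjusted p = 0.00303). Both are markers of these cell types, as are Kit and Mitf, whose means were lower with wild type. The Mitf difference of -0.70 passed with the block and not without it (limma adjusted p = 0.0274 with it and 0.0896 without it). Enpp3, also a marker, stayed below the lower quartile. The cytokine genes Il6 and Il13 rose 11.3-fold and 5.37-fold and the integrin gene Itga2b 6.76-fold, while Kit fell 7.02-fold. R396Q over empty vector had 1 that rose, Il6 (9.29-fold), and 1 that fell, Kit (3.50-fold), with a median of 0.11. The block added Itga2b to those that rose (limma adjusted p = 0.0358). Of all 21072 clusters 139 rose and 120 fell (349 and 283 under the block). The Fcer1a difference of R396Q from empty vector was 0.03 (SE 0.67). Between R396Q and wild type 12 were lower and 1, Kit (2.00-fold), was higher with R396Q, with a median of -0.36. Over all 21072 clusters 648 were lower and 563 higher. The block added Tph1, Ccl3 and Adora3 to those lower, for 15, where 5.95% of clusters were lower. Cd200r3, a receptor of basophils and mast cells, was 17.2-fold lower with R396Q (-4.10, SE 0.38) and Slc6a4, the serotonin transporter, 3.06-fold lower. The Fcer1a difference of R396Q from wild type was -4.35 (limma adjusted p = 0.0132), beside -4.20 for Prss34 and 0.32 for Cpa3, and its call was lost without wild type 1, R396Q 1 or R396Q 3 (adjusted p up to 0.0520).

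Of 13 measured protease inhibitor genes, 2 fell and 0 rose with wild type over empty vector, with a median of -0.03. The block added Serpinb6a (0.63, limma adjusted p = 0.0220) as 1 that rose. Of all 21072 clusters, 917 fell and 977 rose (1982 and 1685 under the block). Cst7, which encodes cystatin F, an inhibitor of cathepsin C, averaged 15.95 ± 0.14 with R396Q, 14.03 ± 0.13 with wild type and 14.71 ± 0.02 with empty vector (SD, n = 3 each), and the groups did not overlap. It fell 1.60-fold with wild type and rose 2.37-fold with R396Q (limma adjusted p = 0.00477 and 0.00259), and these calls held without any 1 array. Cst3 also fell with wild type, 1.50-fold, lost without any 1 of 7 arrays (adjusted p up to 0.115). Cst7 was also 3.80-fold higher with R396Q than with wild type. No other of the 13 was called with R396Q in either comparison (medians of 0.10 against empty vector and 0.00 against wild type). Of all clusters, 259 and 1211 were called in these 2 comparisons. The block added Serpina3f to those higher than in wild type (0.87, limma adjusted p = 0.0267). The 11 measured genes of neutrophil and other granules are 10 proteases and the lipocalin gene Lcn2. With wild type over empty vector 3 of the 11 fell and 0 rose (6 and 0 under the block), and the median was -1.07. Of all clusters, 4.35% fell (1982 of 21072 under the block). The 3 that fell were Mmp8 (65.3-fold), Prtn3 (19.3-fold, lost without empty vector 1) and Elane (52.4-fold, lost without any 1 of 8 arrays). Mmp8 fell 5.26-fold with R396Q over empty vector, a call that held only without empty vector 2 (list median -0.18). It was 12.4-fold higher with R396Q than with wild type, the only 1 called there (median 0.29). With the block 5 were higher, Prtn3, Elane, Prss57 and Lcn2 being added (limma adjusted p = 0.0155, 0.0274, 0.00196 and 0.0323). Over all 21072 clusters 563 were higher with R396Q than with wild type, and 1497 with the block.

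**Figure D4:**
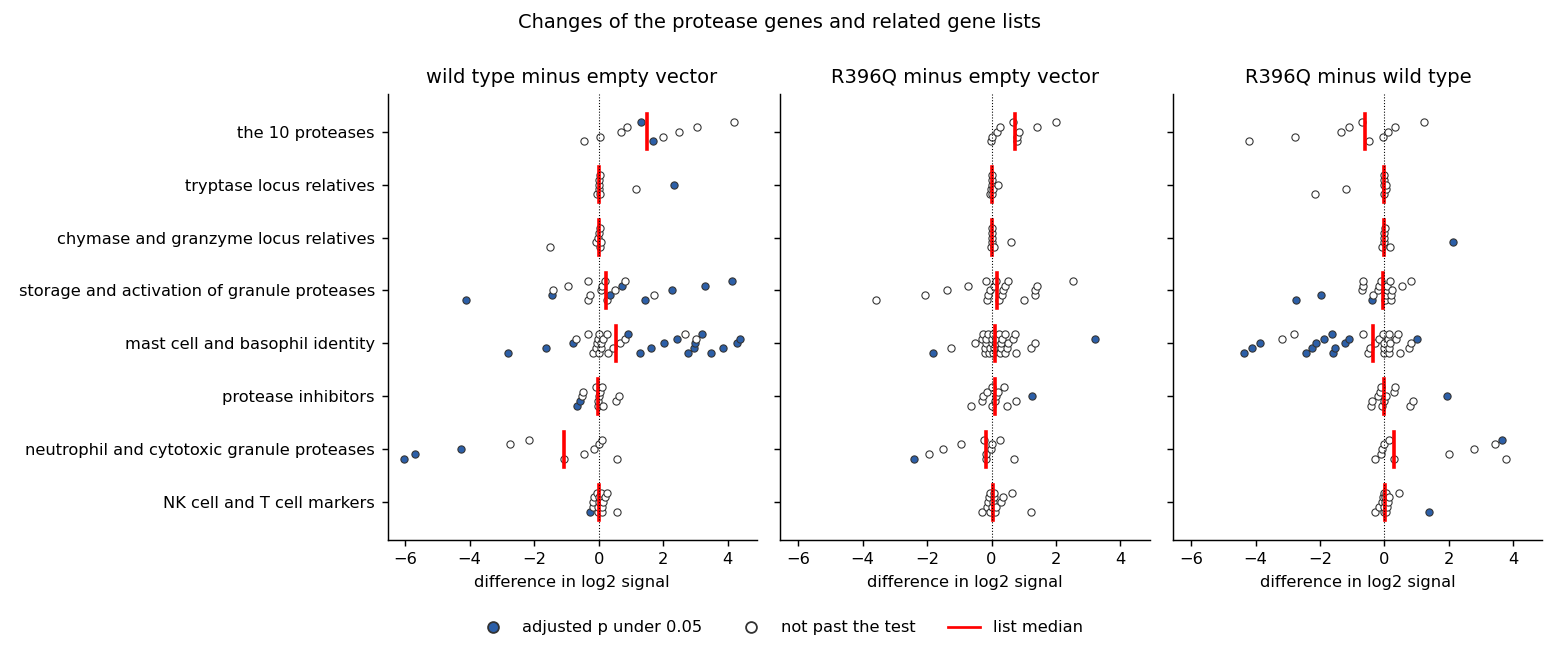
Difference in log2 signal (x axis) of each gene of the protease set and of 7 related lists (y axis) in 3 comparisons, with filled points past the limma test and a red line at the list median; the neutrophil list includes Lcn2, which is no protease. The protease median is 1.50 with wild type over empty vector. With R396Q, 12 of 34 identity genes are called lower than with wild type, as are 648 of 21072 clusters.

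The profiles over the 9 arrays separated the leading proteases. Likeness was the root mean square difference between log2 signals centred on their mean over the 9 arrays, over 18784 other gene symbols, and is a description of these arrays alone. Nearest to Cpa3 were Rab27b, a GTPase of granule release (0.35), Ptger3, a prostaglandin receptor (0.39), Fah, Sucnr1 and Lama5 (0.40 each), where Cpa3 itself varied by 0.98. Nearest to Mcpt8 were Ksr1 (0.18), Mxd1 (0.20), Esyt1, Nucb1 and Osbpl3 (0.21 each), where Mcpt8 varied by 0.60. Nearest to Gzmb were 5 genes of small noncoding RNAs, Rnu2-10, Rny1, Rny3, Snord13 and Snord70 (1.04 to 1.22), where Gzmb varied by 2.04. Rny1, a Y RNA, had log2 signals of 8.16, 7.17 and 9.92 with R396Q, 8.09, 7.07 and 11.16 with wild type and 7.90, 7.03 and 10.71 with empty vector. Like Gzmb it was highest in number 3 and lowest in number 2 in each group, and the part of small RNA content or RNA preparation in the Gzmb signal was not tested.

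**Figure D5:**
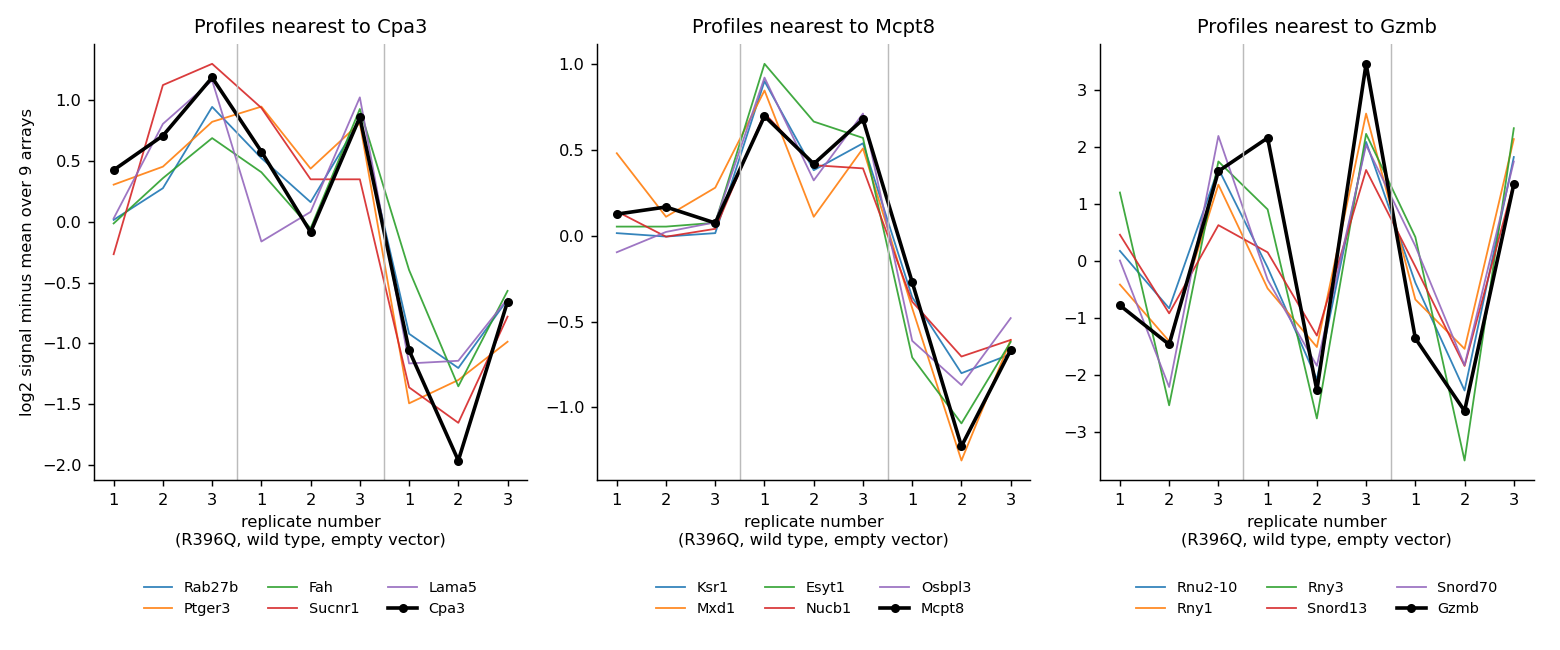
Log2 signal minus its mean over the 9 arrays (y axis) for Cpa3, Mcpt8 and Gzmb (black) and the 5 nearest genes of each (colours), by array (x axis, replicate numbers within R396Q, wild type and empty vector; lines only join the arrays). Cpa3 and Mcpt8 part the GATA2 groups from empty vector, while Gzmb and the small RNA genes peak in number 3 of each group.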

How the data were processed

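RMA (robust multiarray average) and Affymetrix Expression Console are named in the submitters' processing notes, with no versions, and the deposited table holds the resulting log2 signals, 1 for each transcript cluster on each of 9 arrays. Mouse Exon 1.0 ST is the array type per the labels, but the form of the cluster identifiers is that of a later whole-transcript array, so which probes the values come from is not settled. Values were used as the authors deposited them. Symbols came from the array annotation, with repeats of a symbol joined, and were updated through gene identifiers for 418 of 21072 clusters. The array annotation names no build, so promoter windows are those of RefSeq on GRCm38.p6.

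Each cluster was fitted with limma 3.58.1 in R 4.3.3 over all 9 arrays, with 1 mean per group and Benjamini-Hochberg adjustment over 21072 clusters (2-sided, threshold 0.05). The fit was also run on simulated data drawn independently for each array, which does not cover the pairing by replicate number given below. The 10 proteases and the 8 related gene lists (chymase and tryptase relatives, storage, inhibitors, identity, other granule genes, NK and T cells, stem cells) were chosen with earlier results of these data known. Named are the 10 proteases, Gata2, marker genes of the cell types, up to 4 called genes of each list per comparison with the smallest p, up to 2 where none was called, and the 5 nearest profiles. Ctsc, Eomes, Fcer1g and genes called only with the block were named after their values were seen.

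Samples with the same replicate number in different groups deviated together (r = 0.451 to 0.693 over 9 pairs, against -0.537 to -0.0899 for 18 pairs of different numbers). The main fit did not use this pairing, so its calls, its intervals and the filled points of the plots ignore it. An alternative fit took the number as a block. Its result is given where it changes a call of a protease gene, and for the related lists in part only as counts. With the block the SE of wild type over empty vector was smaller for every protease gene, for Gzmb 0.75 against 1.73. Precision is limited by having 3 arrays in a group. Values tie, with 4 distinct ones for Tpsab1 and 7 for Mcpt1. Alternatives were the block, the 2 groups alone, trend and robust options, array weights, median subtraction, quantile normalization, a filter on the dimmest 50%, means over clusters that share a symbol, and each array left out.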

Additional observations from a re-analysis of the deposited data

How the results depend on the processing

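Of 10 protease genes, 2 were called with wild type over empty vector. The count was 0 with only the 2 groups in the fit, 1 with array weights, and 1 to 1 with each array left out, where the gene was Mcpt2 without wild type 1 and Mcpt8 otherwise. With R396Q over empty vector it was 0, and 1 (Cpa3) with the replicate block, after median subtraction and without the dimmest 50% of clusters, and 0 to 0 with each array left out. Between R396Q and wild type it was 0, 1 (Prss34) with the replicate block, and 0 to 1 with each array left out, the call being Mcpt2 without wild type 1. Prss34 also passed with wild type over empty vector with the block (adjusted p = 0.0319) and without the dimmest clusters (0.0404). Trend and robust options, quantile normalization and averaged clusters changed no protease call, and no called change of a protease turned its sign. Over all clusters 1894, 259 and 1211 were called in the 3 comparisons, 3667, 632 and 2750 with the block, and 1026, 94 and 772 with only the 2 groups. Mcpt1 and Tpsab1 fell among the dimmest clusters and have no value there. The causes were not tested.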

Other observations

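Of 9 measured stem and progenitor genes, 1 rose and 4 fell with wild type over empty vector (2 and 5 with the block), with a median change of -0.87. Over all clusters the shares that rose and fell were 4.64% and 4.35% (1685 and 1982 of 21072 with the block). Cd34, a progenitor surface marker, averaged 12.80 ± 0.03 with R396Q, 8.58 ± 0.15 with wild type and 13.21 ± 0.26 with empty vector (SD, n = 3 each), and fell 24.8-fold with wild type. Slamf1 rose 11.9-fold with wild type and 9.54-fold with R396Q, the second call being lost without any 1 of 4 arrays (adjusted p up to 0.0868). With R396Q over empty vector 2 rose and 1 fell (median -0.20), and between R396Q and wild type 3 were higher and 1 was lower with R396Q (median 0.66). Over all 21072 clusters these counts were 139, 120, 563 and 648. Cd48 was 6.30-fold higher with R396Q than with wild type.

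Of 16 NK cell and T cell markers, 0 rose and 1, Prf1, fell with wild type over empty vector (2 fell with the block), and the median change was 0.01. Prf1 fell 1.22-fold, at signals below the lower quartile, and its call was lost without any 1 of 6 arrays. Of all clusters, 4.64% rose with wild type and 4.35% fell (1982 of 21072 fell with the block). With R396Q over empty vector 0 changed in limma (median 0.06), where 1.23% of clusters did. At an unadjusted p under 0.05 there were 3 of the 16, and 2540 of 21072 clusters. With the block 1 rose, Nkg7 (1.21, limma adjusted p = 0.00872 with the block and 0.0872 without it), where 1.66% of clusters did. Nkg7, a protein of cytotoxic granules that myeloid cells also carry, averaged 14.84 ± 0.23 with R396Q, 13.45 ± 0.42 with wild type and 13.63 ± 0.31 with empty vector (SD, n = 3 each). It was the only 1 called between R396Q and wild type, 2.63-fold higher with R396Q (limma adjusted p = 0.0230), with a list median of 0.01. That call was lost without any 1 of 5 arrays, with adjusted p up to 0.0853. Over all 21072 clusters 563 were higher and 648 lower with R396Q than with wild type.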
